A study of Mus musculus with 2 samples.

Results

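The 5 genes described here encode proteins that embryonic endoderm secretes to carry small molecules and lipids: Rbp4, Afp, Ttr, Apoa1 and Apoe, out of 18131 genes in the files. They were chosen by name, with their UMI counts (unique molecular identifiers, 1 per captured transcript) in these same 2 libraries known, so the contrast between the libraries over all cells is given as a description and supports nothing. Both libraries were made from C57BL/6 mouse embryos at E9.5, from tissue reaching from the middle of the ear (otic) placode to the posterior edge of somite 4. The WT library was Prdm6+/+; Wnt1-Cre2; ZsGreen1 and the KO library was Prdm6f/f; Wnt1-Cre2; ZsGreen1, so both carried the Cre driver and the green reporter, and the labels differ in the Prdm6 allele alone. Wnt1-Cre2 acts in the dorsal neural tube and the neural crest made from it, and endoderm is outside that lineage. Embryos were barcoded by MULTI-Seq and pooled, but which embryo each cell came from was not analysed here, so each genotype counts as 1 sample. The cells were not sorted for the reporter, and the labels call them cardiac neural crest cells. By markers, 124 WT and 83 KO cells, 1.04% and 0.850% of each library, met the gate for migrating neural crest, so most cells did not meet the gate nearest to the label. Of all cells, 65.3% in WT and 64.5% in KO met no gate, so missing a gate does not show that its markers were absent.

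With 1 library per genotype there was no replicate, and cells of 1 library are not replicates. No test was made, the intervals below are exact 95% intervals that cover counting error only, and genotype, dissection, embryo and library cannot be told apart. In total 20781384 UMIs were counted in 11958 WT cells (median 1597 per cell) and 18936857 in 9765 KO cells (median 1703), and 26 cell barcodes occurred in both libraries. Prdm6 itself had 104 UMIs in WT and 59 in KO, or 5.00 and 3.12 CPM (UMIs per 1000000 UMIs), and since the cells were not sorted for the deleted lineage and the place of the 3′ tag relative to the deleted part is not given in the sources used here, this is no check of the labels. Cells gated on erythroid markers made up 3.28% of WT and 1.80% of KO cells, cells gated on splanchnic mesoderm markers, of the tissue around the gut tube, 0.820% (0.666 to 0.998) and 0.430% (0.310 to 0.581), and cells gated on foregut endoderm markers 0.418% and 0.369%. The part of these shares in the results below was not tested.

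RBP4 carries retinol from its site of synthesis to tissues, in a complex with transthyretin (TTR), which also carries thyroid hormone and keeps the small RBP4 protein from being lost. Alpha-fetoprotein (AFP) is the albumin-like carrier of fetal plasma, and APOA1 and APOE are the apolipoproteins that organize high-density lipoprotein and that direct lipoprotein uptake through receptors of the LDL family. At this stage the visceral endoderm of the yolk sac, the liver bud and parts of the gut tube are the known sources of RBP4, TTR, AFP and APOA1, while APOE is made by many cell types.

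In mm10 (GRCm38), the build of the processing notes, Rbp4 lies on the minus strand at chr19:38116629-38125281, Afp on the plus strand at chr5:90490737-90508907, Apoa1 on the plus strand at chr9:46228580-46230466 and Apoe on the minus strand at chr7:19696109-19699188, all protein-coding in GENCODE. Afp overlaps 1 annotated gene on the other strand, Gm43449, and the other genes overlap none. The bases just before the transcript start are shown because liver-enriched factors are known to act there on Afp and Apoa1, and Rbp4 and Apoe are set beside them. RefSeq windows (GRCm38.p6) were matched for 4 of the 5 genes, not for Ttr. For each gene the 120 bases lie before both the RefSeq start used and the GENCODE start of the principal transcript, hold no bases of a GENCODE exon, and are read 5′ to 3′ on the gene's strand, and capitals mark matches to the letters searched. The Rbp4 window lies inside the annotated gene, since another transcript starts farther upstream. Rbp4 is shown at chr19:38124829-38124948, Afp at chr5:90490594-90490713, Apoa1 at chr9:46228460-46228579 and Apoe at chr7:19699189-19699308.
Rbp4: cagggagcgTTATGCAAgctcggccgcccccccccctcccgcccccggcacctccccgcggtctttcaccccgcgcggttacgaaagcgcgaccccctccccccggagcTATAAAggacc
Afp: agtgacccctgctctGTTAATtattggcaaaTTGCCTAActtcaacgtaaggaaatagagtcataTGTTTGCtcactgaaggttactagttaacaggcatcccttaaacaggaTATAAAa
Apoa1: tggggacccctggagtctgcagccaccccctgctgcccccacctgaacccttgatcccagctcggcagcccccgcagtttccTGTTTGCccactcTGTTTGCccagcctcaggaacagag
Apoe: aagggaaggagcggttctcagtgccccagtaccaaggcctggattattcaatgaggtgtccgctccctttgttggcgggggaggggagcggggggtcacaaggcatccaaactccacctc

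6 short motifs were searched for on both strands, and no match overlapped another. The shares below are over RefSeq windows that end just before their RefSeq start. The Rbp4 and Apoa1 windows shown end 17 and 50 bases farther upstream than that, so their positions differ from those of the windows counted. The letters of part of an HNF1 site, GTTAAT, were found in Afp, beginning 128 bases before the GENCODE start and 105 before the RefSeq start, and 2.995% of 32851 RefSeq windows of this length hold them. A FOXA site was searched as TGTTTGC, which occurs in Afp at 78 bases before the GENCODE and 55 before the RefSeq start, in Apoa1 at both 38 and 25 bases before the GENCODE start, or 88 and 75 before the RefSeq start, and in 1.94% of windows, and also as TGTTTAC, found in none of the 4 genes and in 1.36% of windows. The letters of a C/EBP site, TTGCNNAA, were found in Afp at 112 bases before the GENCODE and 89 before the RefSeq start and, on the other strand, in Rbp4 at 111 and 128 bases before these starts, and occur in 4.15% of windows. A TATA box, TATAAA, was found in Afp at 30 bases before the GENCODE and 7 before the RefSeq start and in Rbp4 at 11 and 28 bases before these starts, and occurs in 6.34% of windows. The HNF4 letters, CAAAGTC, were found in none of the 4 genes and in 1.75% of windows, and the Apoe window held no match at all. The Rbp4 window was 72.5% G and C and the Afp window 37.5%. A match is a run of letters and not a bound site.

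Over all cells, the retinol carrier pair and Afp were counted less often in the KO library, as was Apoa1 at few UMIs, and Apoe was closest between the libraries. Rbp4 had 628 UMIs in WT and 81 in KO, or 30.2 CPM (27.9 to 32.7) and 4.28 CPM (3.40 to 5.32). On the log2 scale KO minus WT came to -2.82 (-3.17 to -2.48), a WT level 7.06-fold that of KO. Afp had 574 and 158 UMIs, or 27.6 and 8.34 CPM, a log2 ratio of -1.73 (-1.99 to -1.47). Ttr had 638 and 243 UMIs, or 30.7 and 12.8 CPM, a log2 ratio of -1.26 (-1.48 to -1.04). In WT the 3 genes thus had nearly the same number of UMIs, while in KO they were spread out in the order Ttr, Afp, Rbp4, with intervals that did not overlap.

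Apoa1 was the scarcest of the 5, with 88 UMIs in WT and 54 in KO, or 4.23 and 2.85 CPM, a log2 ratio of -0.57 (-1.09 to -0.07) that was -1.15 with cells thinned to 1000 UMIs. Apoe was the most abundant, with 746 and 597 UMIs, or 35.9 and 31.5 CPM, a log2 ratio of -0.19 (-0.35 to -0.03). A count of 3′ tags needs no scaling by transcript length, but the share of transcripts captured may differ from gene to gene.

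**Figure D1:**
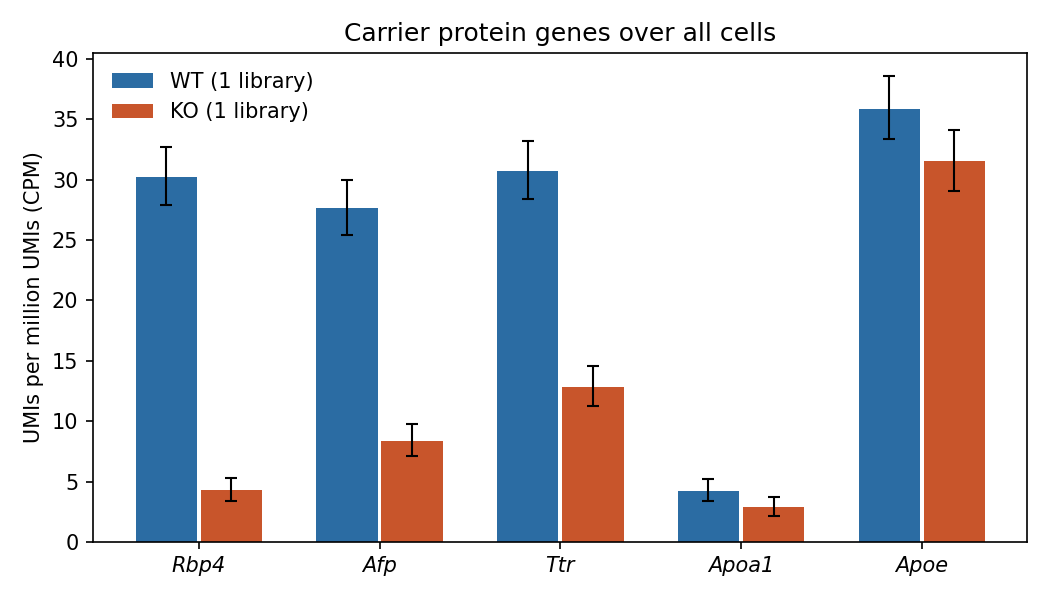
Level of each gene over all cells, in UMIs per 1000000 UMIs (CPM), in the WT and KO libraries. Bars start at 0 and lines are exact 95% Poisson intervals for counting error, with Rbp4 at 30.2 against 4.28 CPM and Apoe at 35.9 against 31.5 CPM.

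Of the 5 genes, 4 had at least 200 UMIs over both libraries, Apoa1 with 142 being the exception. Of those 4, Rbp4, Afp and Ttr were past 2-fold lower in KO, and none was past 2-fold higher, beside 0.333% lower and 0.105% higher among all 10513 genes with that many UMIs. These genes were chosen with this contrast known, so nothing is read from the count. None of the 10513 genes had a lower ratio than Rbp4, 3 had a lower ratio than Afp and 14 a lower ratio than Ttr, whereas 2705 had a lower ratio than Apoe. The median log2 ratio over these genes was -0.06.

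The 3 genes with the low ratios and the apolipoproteins also differed in how their UMIs lay over cells. Had the 628 Rbp4 UMIs of WT been scattered by the depth of each cell, about 609 cells would have held one, but 245 did, which is 0.402 of that number. The same fraction was 0.544 for Afp and 0.483 for Ttr in WT, and 0.707, 0.479 and 0.468 for Rbp4, Afp and Ttr in KO. Apoa1, at 0.902 in WT and 0.985 in KO, and Apoe, at 0.961 and 0.958, lay close to a scatter by depth.

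A few cells held most of the UMIs of Rbp4 in WT and of Afp and Ttr in both libraries, while in KO 67.9% of the Rbp4 UMIs lay in cells with 1 or 2. Cells with 3 or more UMIs of Rbp4 numbered 51 in WT and 6 in KO, and held 64.3% and 32.1% of its UMIs. For Afp there were 58 and 18 such cells with 54.0% and 61.4% of the UMIs, and for Ttr 66 and 30 cells with 54.9% and 61.3%. Apoa1 reached 3 UMIs in 1 WT cell and no KO cell, and Apoe in 3 WT and 5 KO cells. The highest WT cell held 35 UMIs of Rbp4, against 8 in the highest KO cell, and 13 WT cells but no KO cell held 10 or more.

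**Figure D2:**
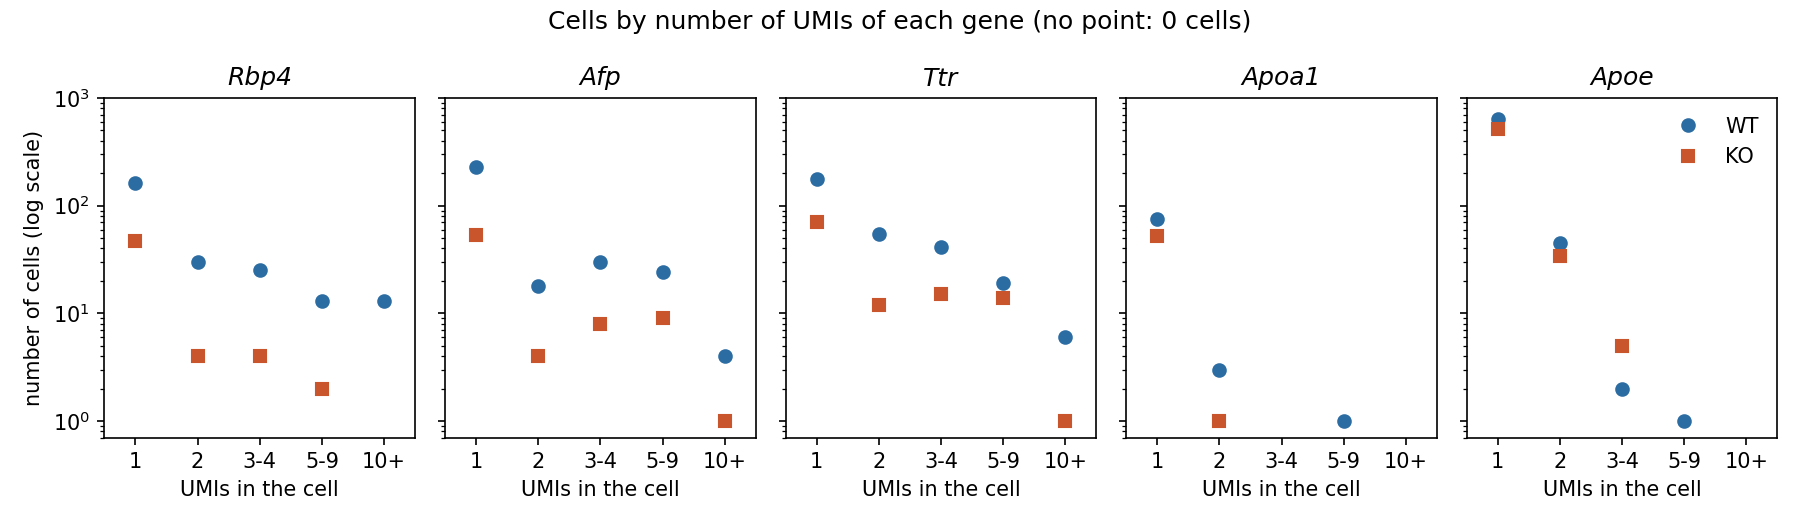
Number of cells (log axis) holding 1, 2, 3 to 4, 5 to 9, or 10 or more UMIs of each gene, WT as circles and KO as squares. Rbp4 reached 10 or more UMIs in 13 WT cells and in no KO cell, whereas Apoe was at 1 UMI in 644 of its 692 WT cells and 513 of its 552 KO cells.

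The share of cells with at least 1 UMI was 2.05% in WT (1.80 to 2.32) and 0.584% in KO (0.442 to 0.756) for Rbp4, 2.54% and 0.768% for Afp, and 2.50% and 1.15% for Ttr. It was 0.661% and 0.543% for Apoa1 and 5.79% and 5.65% for Apoe. Red blood cell precursors, which are not known to make these proteins, gave a gauge, but not an upper limit, of the share from free RNA. Of the 392 WT cells gated on erythroid markers, 0.510% had a UMI of Rbp4, 1.28% of Afp, 1.02% of Ttr, 0.255% of Apoa1 and 3.06% of Apoe, at a median depth of 2104.5 UMIs. Of the 176 KO cells of that gate, 2.84% had a UMI of Apoe and none had one of the other 4 genes, which allows a share of up to 1.70% for each. The WT share of cells with Afp was higher in other gated classes. It was 1.50% in endothelial, 2.21% in cardiac, 3.72% in neural tube, 4.82% in neuron (1.33 to 11.9) and 5.65% in migrating neural crest cells. In KO these shares were 0.913%, 0.502%, 0%, 1.39% and 0%. With every cell thinned to 1000 UMIs the shares over all cells were 1.43% in WT and 0.342% in KO for Rbp4, 1.83% and 0.519% for Afp, 1.80% and 0.768% for Ttr, 0.330% and 0.166% for Apoa1, and 3.43% and 2.90% for Apoe. The thinning left out 1361 WT cells and 125 KO cells below that depth. The order of the libraries was the same with and without it.

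Rbp4, Afp and Ttr were found together in the same cells in both libraries. In WT, 99 cells held both Rbp4 and Ttr, where the product of the shares of cells gives 6.13, and 86 cells held Afp and Ttr (7.60 given by the product) and 70 Rbp4 and Afp (6.23). In KO, 18 cells held Rbp4 and Ttr (0.654), 30 held Afp and Ttr (0.860) and 16 held Rbp4 and Afp (0.438). Of the Rbp4 cells, 40.4% in WT and 31.6% in KO also held Ttr, its plasma partner. Apoe was met in 54 of the 245 WT Rbp4 cells and 12 of the 57 KO Rbp4 cells, against 14.2 and 3.22 by the product, a ratio of 3.81 and 3.72. Apoa1 was met in WT with Rbp4 in 15 cells (1.62 by the product), with Ttr in 16 (1.98) and with Afp in 14 (2.01). In KO it was met with Rbp4 in 1 cell (0.309), with Ttr in 4 (0.608) and with Afp in 2 (0.407). Apoa1 and Apoe shared 8 WT cells and 2 KO cells, against 4.57 and 2.996 by the product. Cells with a UMI of Rbp4 had a median depth of 1795 UMIs in WT and 2453 in KO, above the medians of all cells, and a deeper cell shows more of any gene. With every cell thinned to 1000 UMIs, Rbp4 and Ttr shared 50 WT cells (2.74 by the product) and 8 KO cells (0.253).

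**Figure D3:**
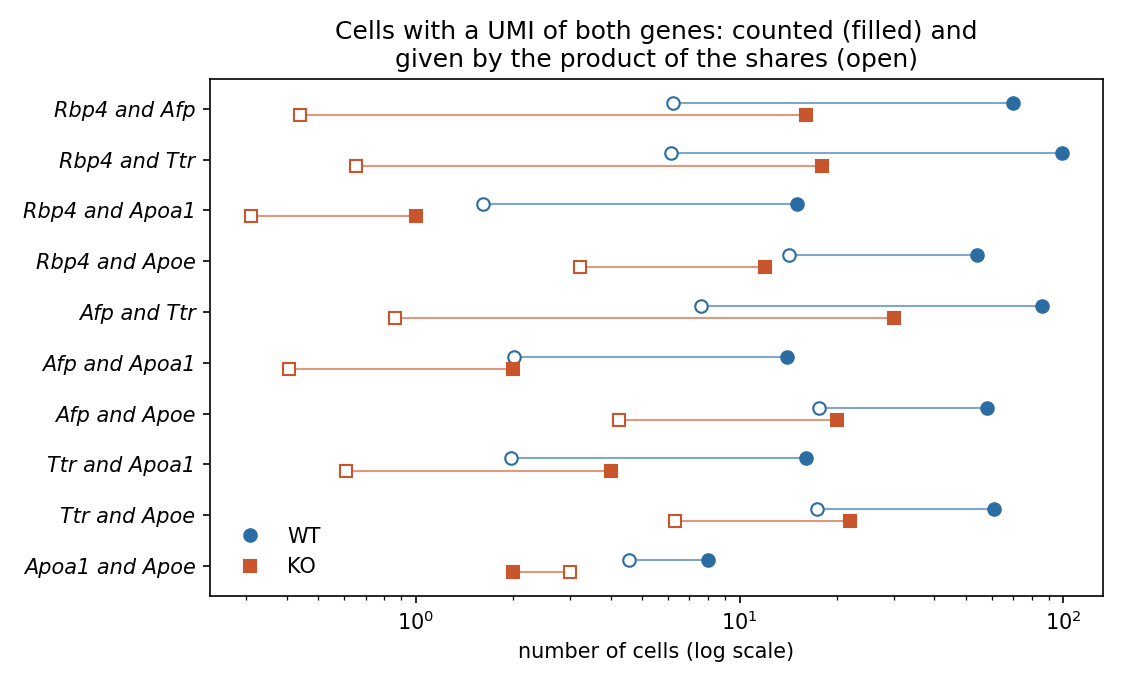
Number of cells (log axis) with a UMI of both genes of each pair, as counted (filled) and as given by multiplying the shares of cells (open), WT as circles and KO as squares. Rbp4 and Ttr shared 99 WT cells against 6.13, while Apoa1 and Apoe shared 2 KO cells against 2.996.

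The cells with most UMIs of the plasma carriers were compared with the markers of each cell type. Cells with 10 or more UMIs summed over Afp, Ttr and Apoa1 numbered 17 in WT (0.142%, 0.0828 to 0.228) and 11 in KO (0.113%, 0.0562 to 0.201), so their intervals overlapped. With 5 or more UMIs there were 67 and 27 such cells (0.560% and 0.276%), and those intervals did not overlap. Rbp4 played no part in choosing them. It had a UMI in 16 of the 17 WT cells, with a median of 3 and a highest of 35 UMIs, but in 5 of the 11 KO cells, with a median of 0 and a highest of 5. Afp ran from 0 to 25 in the WT cells with a median of 6 and from 0 to 10 in the KO cells with a median of 6. Ttr ran from 1 to 23 with a median of 7 in WT and from 3 to 12 with a median of 6 in KO. Afp and Ttr, which chose the cells, thus had like medians, and the Rbp4 ranges overlapped.

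The leading WT cell held 25 Afp, 23 Ttr, 4 Rbp4, 2 Apoa1 and 0 Apoe UMIs among 2903 in all. The next held 35 Rbp4, 21 Ttr, 7 Apoa1, 4 Afp and 3 Apoe UMIs among 1539, and was 1 of the 2 cells in the data that met the gate for visceral endoderm and hepatic markers. The leading KO cell held 10 Afp, 6 Ttr, 1 Apoe and no Rbp4 or Apoa1 UMIs among 3520. The first 2 WT cells thus had nearly opposite proportions of Afp and Rbp4.

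Over both libraries, the genes with the highest fold in these 28 carrier-rich cells against all other cells were, after Ttr, Afp and Rbp4, Apoa2 at 65.4-fold (an apolipoprotein of high-density lipoprotein), Serpinf2 at 31.2-fold (the plasma inhibitor of plasmin), Gstm1 at 13.1-fold (a detoxifying enzyme), Prox1 at 12.3-fold and Onecut2 at 11.4-fold (transcription factors of the liver bud), Apoe at 9.52-fold, and Dlk1 at 8.52-fold (a surface protein of fetal liver progenitors). They are given as a description. The endoderm markers summed to 1182 CPM in the WT and 849 CPM in the KO carrier-rich cells, against 206 and 196 CPM in all other cells, and the visceral endoderm and hepatic markers to 1066 and 629 CPM against 93.6 and 94.3 CPM. Epcam, a gene of many epithelia that is in both lists, made up 348 and 315 CPM of each sum, Cldn6, a tight junction protein, 463 and 283 CPM of the endoderm sum, and 6 of the 11 endoderm markers, Pax9 and Nkx2-1 among them, were at 0 in both libraries. The surface ectoderm markers were at 417 and 315 CPM against 109 and 114 CPM, of which Epcam made up the same 348 and 315 CPM, with 7 of the 10 markers at 0 in WT and 9 in KO. The splanchnic mesoderm markers were at 417 and 566 CPM against 445 and 330 CPM. Gata6, which is also in the list of endodermal transcription factors, made up 348 and 472 CPM of that sum. Foxf1, Hand1, Hand2 and Tbx20 were at 0 in both libraries. The erythroid markers summed to 116 and 0 CPM and the cardiac markers to 788 and 723 CPM, below the 325 and 160 CPM and the 4301 and 3537 CPM of the other cells.

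To set cell number apart from level per cell, cells were gated on transcription factors of the liver bud, a choice made after these values were seen and with no carrier gene in it. Cells with 3 or more of Hhex, Prox1, Onecut1, Onecut2, Hnf4a, Foxa3, Cebpa and Nr5a2 detected numbered 43 in WT (0.360%, 0.260 to 0.484) and 18 in KO (0.184%, 0.109 to 0.291), at median depths of 2371 and 2984 UMIs. Of the 43 WT cells, 36 held Onecut2, 34 Prox1, 30 Hhex, 19 Nr5a2, 9 Hnf4a, 9 Cebpa, 7 Foxa3 and 4 Onecut1. The gate held 53 of the 657 Prox1 UMIs and 62 of the 623 Onecut2 UMIs of WT, so most UMIs of these 2 factors lay outside it. Of the carrier-rich cells, 8 of 17 in WT and 6 of 11 in KO met this gate. Inside it, Ttr was at 1197 CPM in WT and 1193 CPM in KO, a log2 ratio of -0.01 (-0.46 to 0.44). Afp was at 1350 CPM (1137 to 1593) and 867 CPM (640 to 1150), a log2 ratio of -0.64 (-1.14 to -0.16). Rbp4 was at 661 CPM (514 to 836) and 452 CPM (292 to 667), a log2 ratio of -0.55 (-1.27 to 0.13). Apoe was at 230 and 235 CPM, a log2 ratio of 0.03 (-1.07 to 1.06), and Apoa1 had 6 UMIs in WT and 0 in KO. The intervals of Ttr, Apoe and Rbp4 included 0 in these cells and that of Afp did not. Without the carrier-rich cells the Rbp4 ratio of this gate was 0.25 and that of Afp was -1.15, and with the gate read from cells thinned to 1000 UMIs, 10 WT and 2 KO cells were left. In these, Rbp4 had 22 UMIs in WT and 0 in KO, a log2 ratio of at most -1.45. Afp was there at -0.69 (-1.92 to 0.38), so its interval included 0, and Ttr was at 0.15 (-1.37 to 1.49). The Apoe ratio was 1.11 without the carrier-rich cells and -1.16 (-6.68 to 1.88) with the thinned gate.

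The liver bud gate held 10.99% of the Rbp4 UMIs of WT and 30.9% of those of KO, so most Rbp4 lay elsewhere, and without these cells the log2 ratio over all cells was -3.19. The cells with 3 or more Rbp4 UMIs were divided by whether they held Afp, a division also made after the values were seen. With Afp there were 24 WT cells with 166 Rbp4 UMIs and 5 KO cells with 18. Without Afp there were 27 WT cells with 238 Rbp4 UMIs and 1 KO cell with 8. The remaining Rbp4 UMIs lay in cells with 1 or 2 of them, 224 UMIs in 194 WT cells and 55 UMIs in 51 KO cells, a log2 ratio of -1.89 (-2.34 to -1.46). Of the difference of Rbp4 CPM between the libraries, 42.5% lay in the cells without Afp, 27.1% in the cells with Afp, and 30.4% in the cells with 1 or 2 UMIs.

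In WT, the Rbp4 cells with and without Afp differed in how often they held some other genes, at median depths of 2249.5 and 1871 UMIs. Of the genes below, Apoa2, Serpinf2, Gstm1, Nepn, Krt8 and Emb were among those of highest fold in these same cells. Their counts are therefore only a description. Ttr, the partner of RBP4, was found in 23 of the 24 WT cells with Afp and in 22 of the 27 without. Apoe was found in 15 of 24 against 6 of 27. Apoa2 was found in 15 of 24 against 3 of 27, Serpinf2 in 14 of 24 against 3 of 27, and Gstm1 in 14 of 24 against 5 of 27. Nepn, a secreted leucine-rich repeat protein known from gut endoderm, was found in 5 of 24 against 12 of 27, and Krt8, a keratin of simple epithelia, in 11 of 24 against 20 of 27. The other epithelial genes did not all follow Krt8. Krt18 was found in 13 of 24 against 14 of 27, Cldn6 in 12 against 12 and Cldn7 in 10 against 5. Epcam was found in 10 against 14, Cdh1 in 4 against 5, Krt19 in 1 against 6 and Esrp1 in 1 against 2. Emb, a cell surface glycoprotein, was found in 15 of 24 against 20 of 27. The 1 KO cell without Afp held Apoa2, Serpinf2 and Emb but neither Nepn nor Krt8, and met the liver bud gate. Apart from Rbp4 and Ttr, Nepn had the highest fold in the WT cells without Afp, at 43.1-fold with 37 UMIs. Liver bud factors put 7 of the 24 WT cells with Afp and 1 of the 27 without in that gate. Nepn, singled out after its values were seen, had 151 UMIs over all WT cells and 16 over all KO cells, a log2 ratio of -3.10 (-3.95 to -2.36). A smaller number of such cells in the KO library and less RNA in each cannot be told apart for a gene that defines them.

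**Figure D4:**
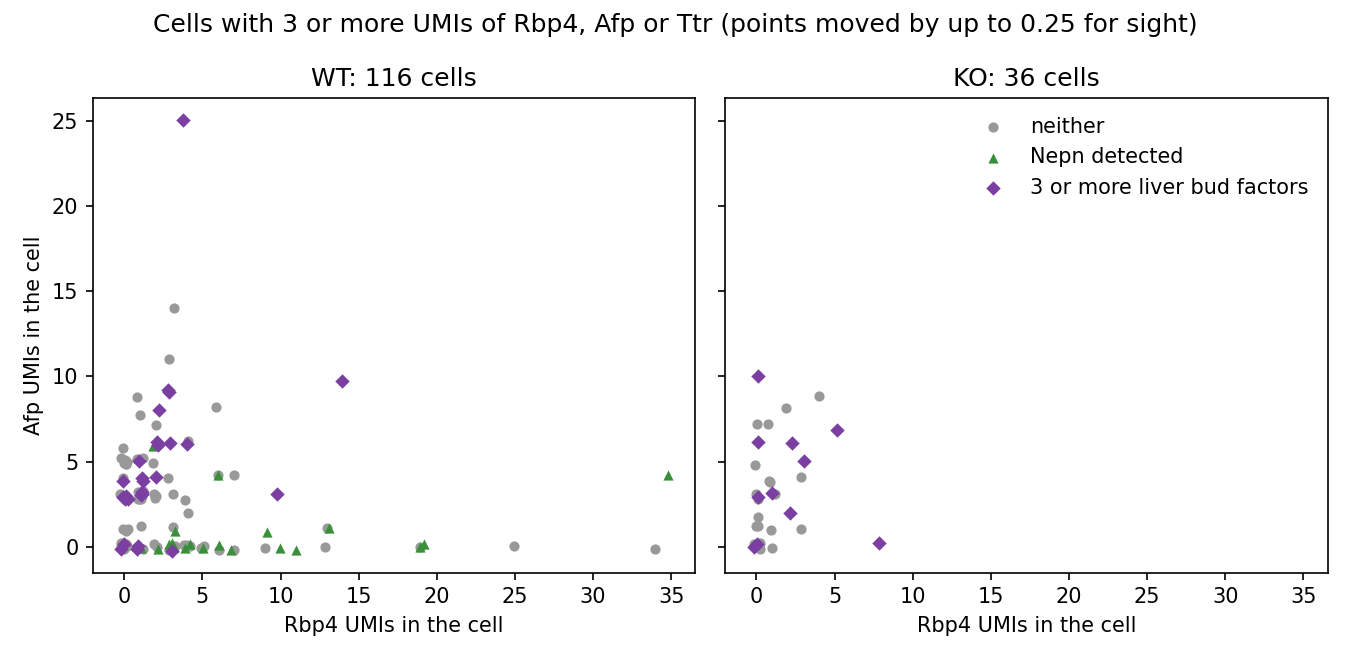
Rbp4 UMIs (horizontal) and Afp UMIs (vertical) in each cell with 3 or more UMIs of Rbp4, Afp or Ttr, 116 cells in WT and 36 in KO. Cells with 3 or more liver bud factors are purple diamonds, other cells with Nepn are green triangles and the rest are grey circles. The WT cells with 19 or more Rbp4 UMIs lay at 0 to 4 Afp UMIs, and the KO panel has 1 cell above 5 Rbp4 UMIs.

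Cells gated on pharyngeal and foregut endoderm markers, with no carrier among them, numbered 50 in WT and 36 in KO. In WT they held 21 UMIs of Rbp4 in 8 cells (179 CPM, 111 to 274), 28 of Ttr in 9 cells (239 CPM) and 15 of Afp in 5 cells (128 CPM). In KO they held 0 of Rbp4, 0 of Ttr and 1 of Afp, where 0 UMIs allows up to 27.7 CPM. The log2 ratio with the floor of 3 UMIs was at most -2.69 for Rbp4 and at most -3.11 for Ttr, and that of Afp was -3.79 (-9.19 to -1.09). Apoa1 had 4 UMIs and 1 UMI, and Apoe had 4 in each library, or 34.2 and 37.0 CPM. A wider gate of 2 markers held 161 WT and 110 KO cells, and the Ttr ratio there was -0.98 (-1.55 to -0.44) with 98 and 41 UMIs, while that of Rbp4 was -3.93 (-5.41 to -2.77) with 111 and 6 UMIs. That of Afp was -1.78 there, with 54 and 13 UMIs. The Ttr difference of the foregut endoderm gate thus was smaller in the wider gate. The Afp ratio of the wider gate lay within the interval of the narrower gate, and the 3 genes kept their direction.

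Outside endoderm, Apoe was highest in cells gated on endothelial markers among the 7 gated classes with at least 50 cells in each library, at 73.7 CPM in 267 WT cells (54.1 to 98.0) and 76.0 CPM in 219 KO cells (55.9 to 101), a log2 ratio of 0.05 (-0.57 to 0.66). The cells gated on cardiac muscle markers followed at 34.1 and 33.8 CPM, an interval apart from that of endothelial cells, then head mesenchyme at 21.3 and 20.5 CPM, neural tube at 18.8 and 16.4 CPM and erythroid cells at 15.1 and 13.2 CPM, and the interval of head mesenchyme overlapped those of cardiac, neural tube and erythroid cells. Migrating neural crest was at 12.7 and 3.95 CPM from 4 UMIs and 1 UMI, and neurons at 6.78 and 12.4 CPM from 1 UMI and 2 UMIs. No cell met the macrophage gate in either library. The 5 genes most alike with Apoe over these 7 classes of 2 libraries, 14 points with shared libraries, were Itga1 (Pearson r of log2(CPM + 10) of 0.95), Cavin2 (0.94), Tbxa2r (0.93), Cavin1 (0.93) and Thbd (0.93).

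For the other members likeness rested on few UMIs, since most of their cells met no gate. The genes most alike were Vgll2 (0.85), Postn (0.74), Rgs17, Fhl2 and Prelid3b for Rbp4, Barx1 (0.94), Aldoa, Krt19, Bves and Foxa1 for Ttr, Ivns1abp (0.88), Fnta, Cbwd1, Tmem101 and Fam118b for Afp, and Umps (0.86), Fuk, Ints11, Ttbk2 and Wdr41 for Apoa1. They are given as a description.

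The cells gated on cardiac muscle markers numbered 2620 in WT and 2390 in KO, with a median of 4 of the 12 markers, so the gate takes in cells with little cardiac RNA. They held 133 Rbp4 UMIs in 45 WT cells (29.3 CPM) and 9 in 9 KO cells (2.03 CPM), a log2 ratio of -3.85 (-5.01 to -2.88). Afp was at 15.6 and 4.06 CPM and Ttr at 18.5 and 9.03 CPM. Under a gate of at least 6 of the 12 markers, with 858 WT and 549 KO cells, Rbp4 was at 12.7 and 2.73 CPM, Afp at 7.12 and 2.05 CPM and Ttr at 7.12 and 8.19 CPM. The Ttr difference thus changed direction with the stricter gate, at few UMIs.

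Afp had at least as many UMIs as each of the other 4 genes in WT neural tube, migrating neural crest and neuron cells, but 0 in the 47 WT floor plate cells, where Apoe had 3. Neural tube cells held 9 Afp UMIs in 9 of 242 WT cells (18.8 CPM) and none in 194 KO cells, migrating neural crest cells 7 in 7 of 124 WT cells (22.2 CPM) and none in 83 KO cells, and neurons 4 in 4 of 83 WT cells and 1 in 72 KO cells. No cell of these 3 classes held more than 1 UMI of Afp. Ttr had 5 UMIs in WT and 1 in KO neural tube cells, and none in migrating neural crest or neurons. Rbp4 had 0 UMIs in neural tube cells, 2 in migrating neural crest and 0 in neurons in WT, and 2, 0 and 2 in KO. The migrating neural crest gate is the class nearest to the deleted lineage, and its Rbp4, Ttr and Apoa1 counts, of at most 2 UMIs per library, were too few for a ratio.

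**Figure D5:**
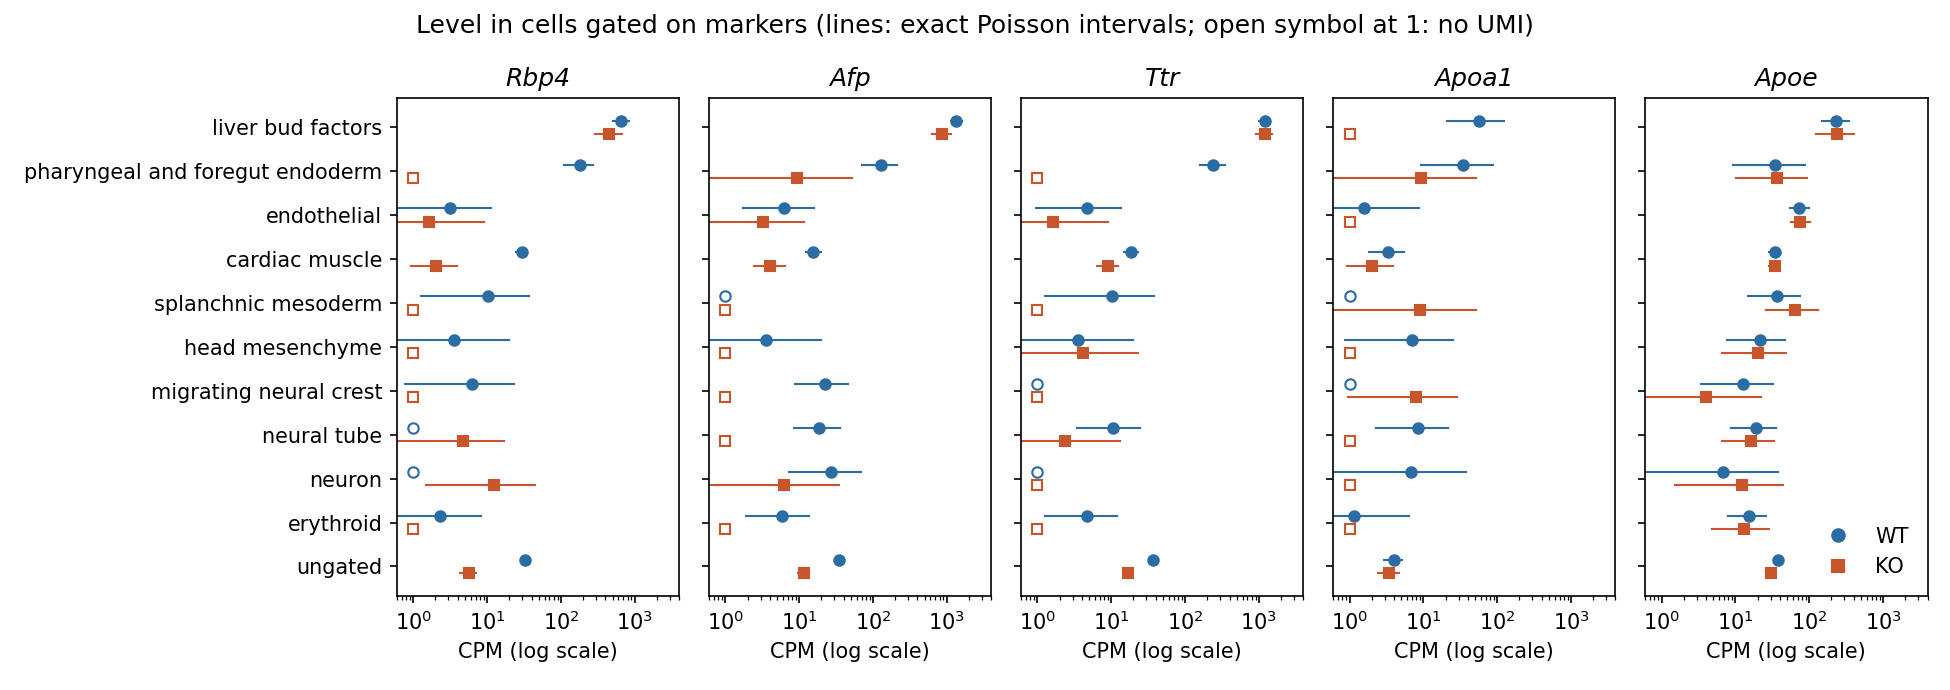
Level of each gene (CPM, log axis) in cells gated on markers, WT as circles and KO as squares, with exact 95% Poisson intervals. Open symbols at 1 stand for 0 UMIs. Of the classes drawn, all 5 genes are highest in WT in the liver bud gate, Rbp4, Afp and Ttr at 661, 1350 and 1197 CPM and Apoe at 230 CPM. The 2 WT cells of the visceral endoderm and hepatic gate, at 8804 CPM of Rbp4, are not drawn.

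The other secreted carriers and apolipoproteins mostly had ratios below 0, with few UMIs each. Of the 17 in the files, the interval of the log2 ratio lay below 0 for 10 and above 0 for none, included 0 for 6, and 1 had too few UMIs. Among all 16891 genes with enough UMIs for a ratio, 20.7% had an interval below 0 and 11.4% one above 0, shares that depend on how many UMIs a gene has. Of these, 2 had 200 UMIs, with a median log2 ratio of -0.52 beside -0.06 over all genes, and neither was past 2-fold. Clu, a chaperone of the extracellular space, had 385 UMIs in WT and 266 in KO (log2 ratio -0.40) and Apoa2 had 333 and 194 (-0.65). Fgb, a chain of fibrinogen, had 63 and 50 UMIs (-0.20, -0.76 to 0.36), and Trf, the iron carrier, 57 and 41 (-0.34, -0.96 to 0.26). Alb, the main plasma protein of the later liver and named here after its values were seen, had 34 and 9 UMIs (-1.78, -3.03 to -0.69).

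Of 16 genes for the receptors that take up these proteins, the interval lay below 0 for 5 and above 0 for none, and 13 of the 16 had 200 UMIs, where 29.1% of genes had intervals below 0 and 16.9% above. The median log2 ratio of the 13 with 200 UMIs was -0.04. Stra6, the membrane receptor that takes retinol from RBP4, had 1108 UMIs in WT and 818 in KO (-0.30, -0.44 to -0.17), and 4 UMIs of it in each library lay in the foregut endoderm gate. Lrp1, a receptor for APOE-bearing particles, had 1598 and 1370 UMIs (-0.09), Tfrc, the transferrin receptor, 2096 and 1655 (-0.21), and Dab2, an adaptor for receptor uptake, 1036 and 916 (-0.04). The lowest ratio of the list was that of Cubn, an uptake receptor for APOA1 in kidney and yolk sac, named after its values were seen, with 24 and 6 UMIs (-1.87, -3.45 to -0.54).

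Genes that handle retinoids inside cells had ratios on both sides of 0. Of 15, the interval lay below 0 for 3 and above 0 for 4, beside 20.7% and 11.4% of all genes and 29.1% and 16.9% of those with 200 UMIs, and the median of the 9 with 200 UMIs was 0.07. Crabp1 and Crabp2, which bind retinoic acid in the cytosol, had 31361 and 31371 UMIs (0.13) and 8390 and 9525 UMIs (0.32). Rara, a retinoic acid receptor, had 2400 and 1760 UMIs (-0.31).

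The transcription factors of endoderm and liver, which were read in all cells, had intervals below 0 for 9 of 16 and above 0 for none, beside 20.7% and 11.4% of all genes and 29.1% and 16.9% of those with 200 UMIs, with a median of -0.38 over the 9 with 200 UMIs. Gata6 had 3335 UMIs in WT and 2341 in KO (-0.38) and Gata4 1569 and 873 (-0.71), both of which the heart also makes, while Prox1 had 657 and 567 (-0.08) and Onecut2 623 and 586 (0.05). Of the 11 genes of yolk sac and visceral endoderm, 6 intervals lay below 0 and none above, 3 of the 11 having 200 UMIs, with Cited1 at 425 and 322 UMIs (-0.27), Mttp at 394 and 293 (-0.29), Cystm1 at 326 and 213 (-0.48) and Spink1 at 72 and 43 (-0.61). Of the 8 epithelial genes, 4 intervals lay below 0 and 2 above, all 8 having 200 UMIs, with Krt18 at 1766 and 1300 UMIs (-0.31), Krt8 at 1682 and 1217 (-0.33), Epcam at 1344 and 1387 (0.18) and Cldn6 at 785 and 638 (-0.17). The intervals of Epcam lay above 0 and those of Krt8, Krt18 and Cldn6 below it. Whether the extent of gut tube and liver bud taken in each dissection differed was not tested.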

How the data were processed

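Per the submitters' processing notes, reads were handled with Cell Ranger 1.3.1 and Scanpy on mm10. The study's methods state that cells between 200 and 6000 UMIs and genes in at least 3 cells were kept, and that mitochondrial and ribosomal UMIs were removed. The deposited values are in none of the usual units: they equal the square root of a gene's share of its cell's UMIs multiplied by 1641, as the authors normalized them. Squaring each value and dividing by the smallest nonzero square of its cell gave whole numbers for 100% of nonzero values (within 0.01), which were used as UMIs. The study's methods state that doublets were excluded with DoubletFinder and with a threshold on high count depth. The authors' cell annotation was not used here, and no further doublet caller was run here.

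UMIs were summed over cells and given as CPM with exact Poisson intervals. Ratios of KO over WT had exact conditional binomial intervals, and shares Clopper-Pearson intervals, at 95%. Where a library had 0 UMIs, a floor of 3 UMIs per library was used. With 1 library per genotype no count model and no test was used. A cell was gated to 1 of 19 marker classes where at least 3 of its markers were detected and at least 2 more than of any other class. The 5 genes, the 19 classes and the 6 gene lists were chosen with earlier results of these data known, and the liver bud gate, the stricter gate at 0.5 of the markers and the division of Rbp4 cells were added after seeing the data. Named genes are the 4 with most UMIs of each list, the 5 most alike with each member (Pearson r of log2(CPM + 10) over classes of 50 or more cells in each library, among genes with at least 200 UMIs), and the 10 of highest fold, at 30 or more UMIs and with 10 CPM added to each side, in carrier-rich cells. Outside this rule, Nepn and Emb were named from the genes of highest fold in the divided Rbp4 cells. Alb, Cubn and the epithelial genes set beside Krt8 were also named after their values were seen. Some listed symbols were not analysed here, and 1 gene that the rule names is not reported here. Alternatives were other gates, thinning to 1000 UMIs, other cut-offs and leaving out the carrier-rich cells. Scripts used Python 3.11.15, NumPy 2.4.6, SciPy 1.17.1, pandas 2.3.3 and matplotlib 3.10.9. Interval coverage was tested on simulated Poisson counts, which is the model the intervals assume. That simulation held no clumping of UMIs in few cells, so it does not show the coverage for Rbp4, Afp and Ttr.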

Additional observations from a re-analysis of the deposited data

How the results depend on the processing

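Alternatives moved 32 of 142 recomputed values past their counting interval, or a count past its limit, and turned the sign of 4, while 106 stayed within. Leaving out the liver bud cells gave Rbp4 a log2 ratio of -3.19 over all cells, and leaving out cells with 3 or more UMIs of Rbp4, Afp or Ttr gave -1.95 for Rbp4 and -2.13 for Afp. Without the carrier-rich cells Afp was at -2.14 over all cells, Afp and Ttr at -2.13 and -1.44 in ungated cells, and Rbp4, Afp and Apoe at 0.25, -1.15 and 1.11 in the liver bud gate. Cardiac Rbp4 was at -2.27 with 2 markers and -2.22 with at least 0.5 of the markers, where Ttr was at 0.20 and Apoa1 at 0.75, and ungated Rbp4 was at -3.35 with 2 markers. The carrier-rich cells numbered 67 in WT and 27 in KO at 5 or more UMIs and 2 and 0 at 20 or more. Thinned to 1000 UMIs, Apoa1 was at -1.15, and the shares of cells with a UMI in WT and KO were 1.43% and 0.342% for Rbp4, 1.83% and 0.519% for Afp, 1.80% and 0.768% for Ttr, 0.330% and 0.166% for Apoa1, and 3.43% and 2.90% for Apoe. Co-detection over the product was then 2.29 for Ttr and Apoe in WT and 52.1 for Afp and Ttr in KO. The liver bud gate read from thinned cells held 10 WT and 2 KO cells, with Apoe at -1.16. With no minimum of UMIs, 5.88% of genes were past 2-fold lower and 4.3% higher. The cause of these moves was not tested. No paired analysis was possible because the labels give 1 library per genotype with no shared replicate numbers and the cells were not mapped to their barcoded embryos here, and for the same reason no replicate could be left out.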
